A study of Homo sapiens with 7 samples.

Results

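The regions described here are sites where an antibody against the vitamin D receptor (VDR) gave a peak in at least 2 libraries of solvent-treated cells and in neither of the hormone-treated libraries they were compared with. The cells were THP-1, an established line that came from a human acute monocytic leukaemia. They received 100 nM 1α,25-dihydroxyvitamin D3 (1,25D), the active hormone, or the solvent, 0.1% ethanol (EtOH), for 8 h. The assay was ChIPmentation, in which sequencing adapters are inserted by a transposase while the precipitated chromatin is still on the beads, with 3 libraries per treatment and 1 input library that was not analysed here. All libraries come from 1 cell line, and the labels do not say that replicates were separate cultures.

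Peaks of 1,25D replicates 1 and 3 and EtOH replicates 1, 2 and 3 were merged where they shared at least 1 bp. The compared part ran, in the order of the lists, over chromosome 1, chromosomes 10 to 19, 2, 20 to 22, 3 and 4, and chromosome 5 up to 90175161, the last complete peak of 1,25D replicate 3. This gave 50857 sites. The members were chosen by presence and absence in these 5 lists: 439 sites, or 0.863% of all, had a peak in at least 2 EtOH lists and in neither 1,25D list. They are called repeated EtOH-only sites below. Because absence from the 1,25D lists defines them, that absence is a description and was not tested. A missing peak means that a site did not pass the peak caller's threshold in that library, not that VDR was absent. 1,25D replicate 2, whose list ended on chromosome 16 at 50293713, took no part in the choice.

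VDR is a nuclear receptor that binds DNA together with the retinoid X receptor, classically at a pair of direct-repeat half-sites. The hormone changes the shape of the receptor so that corepressors leave and coactivators are recruited, and it raises the occupancy of many sites. Receptor without ligand can also sit on chromatin, where it is known for contacts with corepressors. Sites with a VDR peak in solvent-treated cells and no peak in hormone-treated cells show the opposite of the usual pattern. Sites are given by their position in hg19, as listed. Since no genome sequence or genes of hg19 were used here, neither sequences nor neighbouring genes are given.

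The lists held 9434 and 8620 peaks in the compared part for 1,25D replicates 1 and 3, and 9249, 21369 and 10390 for EtOH replicates 1 to 3, so EtOH replicate 2 was the longest list by far. Fold enrichment is the authors' value for a peak over the peak caller's background, within its own list. Read counts are not given, so the depth behind a peak is unknown. The highest p-value was 0.00433 and 0.00431 in the lists of 1,25D and EtOH replicates 1 and 0.0099 to 0.00997 in the others. A weak peak could therefore enter some lists and not others.

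Repeated EtOH-only sites were fewer than sites of the opposite pattern, although the latter had to be present in every 1,25D list used. Of the 50857 sites, 1204 (2.37%) had a peak in both 1,25D lists and in no EtOH list, and 613 (1.21%) had a peak in all 5. Among the 439 repeated EtOH-only sites, 150 were called in EtOH replicates 1 and 2 alone, 130 in replicates 1 and 3 alone and 144 in replicates 2 and 3 alone. The remaining 15, which are 0.0295% of all sites, were called in all 3 EtOH lists. Each pair of EtOH libraries thus contributed a similar number. Pairs of 1 EtOH and 1 1,25D list, by comparison, had 73 to 221 sites to themselves over 6 pairs, a range that includes all 3 EtOH pairs. Without EtOH replicate 1, 2 or 3 the count of repeated EtOH-only sites was 162, 145 or 165, since both remaining lists then have to agree.

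As a reference for coincidence between unrelated peaks, the 5 lists were shifted against each other by fixed offsets, in 10 sets with steps of 50 kb to 1 Mb in either direction. The moved lists gave a mean of 148 repeated EtOH-only sites (range 117 to 177), against 439 with the lists in place, a ratio of 2.96. For EtOH replicates 1 and 2 the deposited count of 150 stood against a mean of 55, for replicates 1 and 3 the 130 stood against 30.3, and for replicates 2 and 3 the 144 stood against 62.1. The pair without the longest list, replicates 1 and 3, had the highest ratio, 4.29. Sites in all 3 EtOH lists numbered 0 to 3 in the moved sets and 15 in the deposited lists. The opposite pattern stood further from its moved value: 1204 sites in both 1,25D lists and no EtOH list against a mean of 24.8 (range 19 to 32). The moved counts are given as values, without a p. Moving also separates a strong EtOH peak from the 1,25D peak at the same site, so that moved lists can hold strong EtOH-only sites that the deposited lists cannot.

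**Figure D1:**
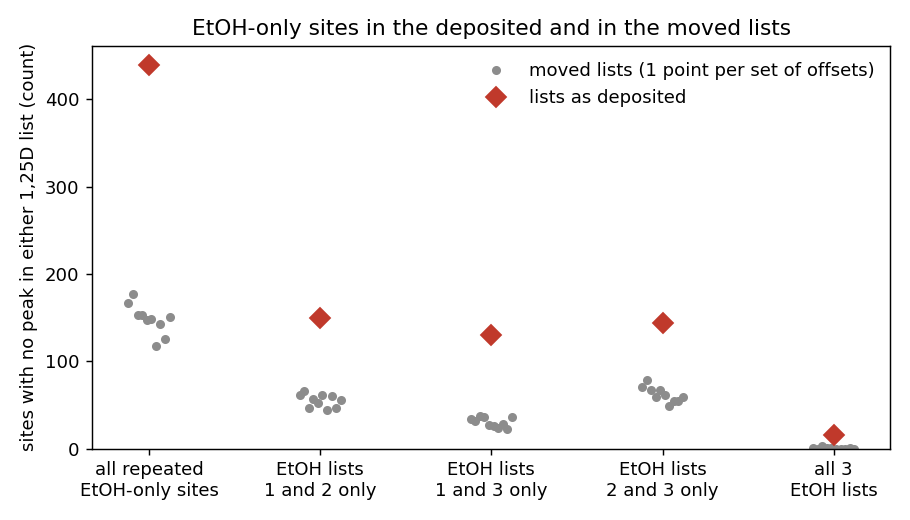
Number of sites with peaks in at least 2 EtOH lists and in neither 1,25D list (vertical axis, count), in all and by the EtOH lists that called them; diamonds show the deposited lists and grey points the 10 sets of moved lists. The deposited total of 439 lies above the moved range of 117 to 177, and each pair of lists lies above its own moved values.

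The repeated EtOH-only sites were weak, of about the strength of an ordinary peak in each list. Their median fold was 3.67 in EtOH replicate 1 (range 1.40 to 6.82, 295 sites), 3.46 in replicate 2 (1.93 to 6.92, 309 sites) and 3.01 in replicate 3 (1.63 to 4.90, 289 sites). The medians of the whole lists were the same to this precision: 3.67, 3.46 and 3.01. Folds of 5 or more were reached at 10, 4 and 0 of these sites in replicates 1, 2 and 3, and in at least 1 list at 12 of the 439 (2.73%). The median highest fold of a site was 3.78, as for sites in 1 EtOH and 1 1,25D list, against 3.36 for single-list EtOH sites. A fold of 5 or more was reached by 8.0% of the sites in 1 EtOH and 1 1,25D list and by 0.594% of single-list EtOH sites. Of the 1,25D-only sites, 55.7% reached that fold in a 1,25D list, and of the sites in all 5 lists 94.5% did in at least 1 list. These shares come from unlike lists. Over whole lists, folds of 5 or more made up 16.9% and 21.8% of peaks in 1,25D replicates 1 and 3. They made up 5.64%, 2.78% and 3.99% in EtOH replicates 1 to 3. The moved sets held 117 to 177 repeated EtOH-only sites, of which 11 to 18 reached a fold of 5, against 12 of 439. Moving also frees strong EtOH peaks from 1,25D peaks at the same site. The comparison therefore cannot show whether strong members exceed coincidence.

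A peak of low fold often takes the same value many times in a list. In EtOH replicate 3, 26.5% of all peaks and 19.0% of those at repeated EtOH-only sites carried the list's most common fold, 3.01. The shares were 17.6% and 22.3% in replicate 2 at a fold of 3.46, and 15.9% and 12.5% in replicate 1 at 3.57. The fold of a site in one EtOH library told little about its fold in another: Spearman's rho across sites was 0.259 for replicates 1 and 2 (165 sites), 0.149 for replicates 1 and 3 (145 sites) and 0.0911 for replicates 2 and 3 (159 sites). At the 613 sites in all 5 lists it was 0.647, 0.741 and 0.724. These are descriptions across sites of the same libraries, and the narrow range of fold at the repeated EtOH-only sites bears on them. All EtOH peaks of a site ranked above the 50th percentile of fold of their lists at 85 of the 439 sites (19.4%), and above the 90th percentile at 4. These counts have no reference from other sites or from moved lists, so they do not set the members apart.

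The merged repeated EtOH-only sites had a median length of 265 bp, close to the 264 bp of sites in 1 EtOH and 1 1,25D list and below the 343 bp of 1,25D-only sites. A single-list EtOH site, which is 1 unmerged peak, had a median of 148 bp, and 148 bp was also the shortest peak in EtOH replicate 2. At 273 of the 439 sites (62.2%) peaks of different libraries shared at least 50% of the shorter peak, against a mean of 57.9% (range 55.1% to 61.6%) in the moved sets. The nearest peak centres of different libraries lay a median of 74.5 bp apart, against 91.3 bp (range 85.0 to 97.2 bp). The overlap share lay just above the moved range, and the centre distance lay below all 10 moved values.

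The 15 sites called in all 3 EtOH lists had mean folds of 2.42 to 5.0, and 8 of them lay on chromosome 1. First by rank came chromosome 13 at 21290621 to 21291076, where the folds were 4.94, 4.97 and 3.78 in EtOH replicates 1 to 3 (4.56 ± 0.679, mean ± SD, n = 3). 1,25D replicate 2 had a peak there, with a fold of 3.48, so this site was not free of a peak in every hormone library. The highest mean fold was on chromosome 1 at 239229982 to 239230456, with 5.81, 5.66 and 3.52 (5.0 ± 1.29), and 1,25D replicate 2 had no peak there. Folds are on each list's own scale, and the lowest percentile of fold among the EtOH lists was 89.4 at the first and 81.0 at the second, so both ranked high in every EtOH list. The first lay 225871 bp from the nearest site with a peak in 1,25D replicate 1 or 3, and the second 151 bp. Here and below, distances to a 1,25D peak or site leave out 1,25D replicate 2.

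On chromosome 2 the site at 9781643 to 9782021 had folds of 5.61, 3.71 and 4.07. It ended 347 bp before a site called in all 5 lists, at 9782368 to 9783200, whose mean fold was 26.5 after 1,25D and 22.3 after EtOH. Chromosome 19 held a site at 42903307 to 42903578 with folds of 4.54, 3.67 and 3.85, which lay 27870 bp from the nearest site with a 1,25D peak. The most even of the 15 was on chromosome 10 at 80409320 to 80409706, with folds of 3.72, 3.81 and 3.91 (3.82 ± 0.096), 12926 bp from the nearest 1,25D peak. With the first site on chromosome 13, which had a peak in 1,25D replicate 2, these lay furthest from such neighbours among the top 5.

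The folds were 5.81, 3.21 and 3.50 on chromosome 1 at 241253832 to 241254609, and 4.30, 6.26 and 2.18 at 41406251 to 41407259. The highest fold was in replicate 1 at the first and in replicate 2 at the second. The latter lay 226 bp after a site in all 5 lists, at 41405208 to 41406025 (mean 1,25D fold 13.4). Chromosome 13 held another site, at 43195574 to 43195875, with folds of 4.72, 4.82 and 2.99, where 1,25D replicate 2 again had a peak (fold 3.50). The other 7 had mean folds of 2.42 to 3.36. They were on chromosome 1 at 145003350 (3.36 ± 0.347), 174326863 (3.23 ± 0.495), 219372285 (2.98 ± 0.430), 40668156 (2.77 ± 0.405) and 40897247 (2.42 ± 0.337), and on chromosome 10 at 42395597 (3.03 ± 0.193) and 42387670 (2.53 ± 0.557). Over all 15, 5 lay within 1 kb of a site with a 1,25D peak and 5 within 10 kb of a site called in all 5 lists.

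**Figure D2:**
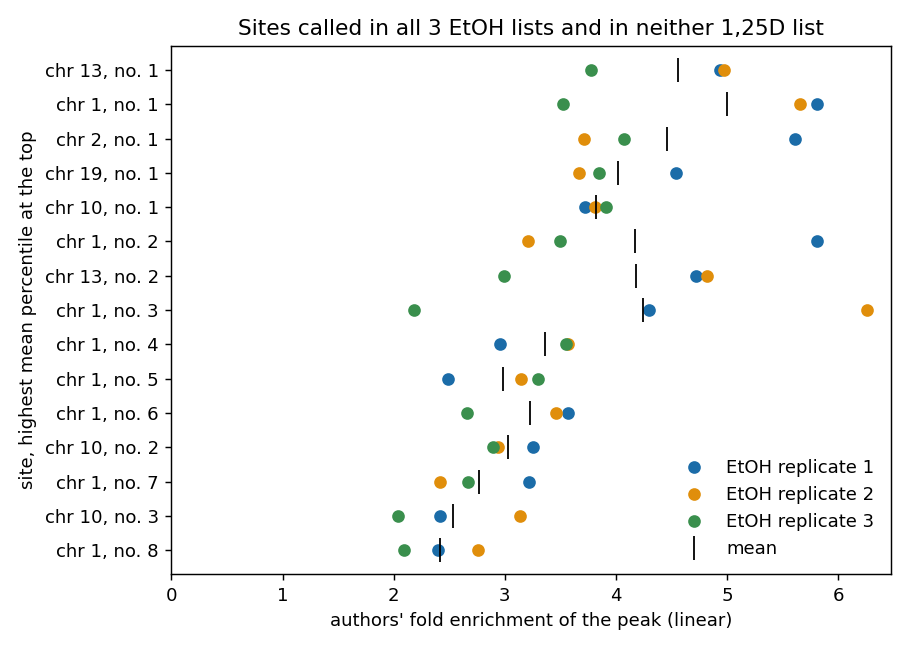
Authors' fold enrichment (horizontal axis, linear) of the 15 sites called in all 3 EtOH lists and in neither 1,25D list, with 1 coloured point per EtOH replicate and a tick at their mean; sites are ordered by mean percentile within the lists and numbered within each chromosome. Mean folds run from 2.42 to 5.0, and which replicate is highest differs from site to site.

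Of the sites called in 2 EtOH lists, the 10 with the highest lower percentile of fold included 2 from one stretch of chromosome 16. The site at 46413877 to 46414064 had folds of 6.29 in EtOH replicate 1 and 6.92 in replicate 2, and that at 46399981 to 46400173 had 4.28 in replicate 2 and 4.90 in replicate 3, with a 1,25D replicate 2 peak of fold 3.49. The nearest site with a peak in 1,25D replicate 1 or 3 lay 1419 bp from the first and 991 bp from the second. Chromosome 1 held 3 of the 10: 247046628 to 247046783 (4.35 and 4.10 in replicates 2 and 3), 148550052 to 148550315 (4.40 and 3.83 in replicates 2 and 3, with 2.78 in 1,25D replicate 2) and 183668210 to 183668404 (4.65 and 4.97 in replicates 1 and 2).

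Another 4 of these 10 flanked a site called in all 5 lists, at 1 to 237 bp. They were on chromosome 2 at 212320809 (folds 5.0 and 3.77 in EtOH replicates 1 and 3, 175 bp away), chromosome 5 at 65079512 (4.76 and 4.40 in the same replicates, 1 bp away), chromosome 14 at 66605606 (4.44 and 3.77 in the same replicates, 237 bp away) and chromosome 14 at 80729654 (4.44 and 4.97 in replicates 1 and 2, 155 bp away). The neighbour of the site at 66605606 had a mean fold of 25.9 after 1,25D and 17.3 after EtOH. The last of the 10, on chromosome 12 at 22691631 to 22691817 (4.72 and 3.77 in replicates 1 and 3), lay 119 bp from a site of 4 lists whose highest 1,25D fold was 6.93. In all, 7 of these 10 lay within 1 kb of a site with a 1,25D peak.

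At the edge of the rule were the members whose weaker peak ranked lowest by fold in its list. They were on chromosome 1 at 40956739 to 40957001, with folds of 2.22 and 1.63 in EtOH replicates 2 and 3, and on chromosome 10 at 42385056 to 42385334, with 1.40 and 1.93 in replicates 1 and 2. The peak caller's lowest p was 0.00121 at the first and 1.17e-08 at the second, so the second was low in fold but not in its p. Just outside it, the strongest sites of a single EtOH list were on chromosome 22 at 16861819 to 16862096 (fold 7.55) and chromosome 2 at 33141198 to 33141410 (7.34), both in replicate 2. Their folds were above the highest of any member, 6.92. By the peak caller's p they were not ahead: it was 2.12e-12 and 2.18e-13, against a lowest p of 1.37e-13 at the member on chromosome 1 at 41406251. Another 185 sites were in at least 2 EtOH lists and in 1 of the 1,25D lists. The weakest 1,25D peaks among these were on chromosome 1, at 121484325 to 121485483 (fold 1.65 in 1,25D replicate 1, 1.48 and 2.03 in EtOH replicates 1 and 2) and at 40692799 to 40693330 (1.98 in 1,25D replicate 3, 2.34, 2.41 and 2.69 in the EtOH lists).

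Whether the hormone libraries lack these sites was examined in 1,25D replicate 2, the list that the rule did not use. Over the part that its list covers, 18 of 322 repeated EtOH-only sites had a peak in it, or 5.59% (exact Clopper-Pearson 95% interval 3.35% to 8.69%). That share was 7.86% over all 27600 sites there. It was 0.769% (0.65% to 0.903%) of 19114 single-list EtOH sites and 24.6% (20.9% to 28.5%) of 525 sites in 1 EtOH and 1 1,25D list. It was 86.3% of the 577 1,25D-only sites and 99.0% of the 301 sites in all 5 lists. It was 9.85% (9.12% to 10.6%) of 6204 sites in a single 1,25D list. This list held 3647 peaks, and it lacked a peak at most sites seen once in either treatment as well as at most repeated EtOH-only sites. It had one at the latter more often than at EtOH sites seen once, but the 7.86% over all sites lies within their interval. Repeated EtOH-only sites were also longer than EtOH sites seen once, with medians of 265 and 148 bp. A longer site can share 1 bp with a peak more readily, and the shares were not adjusted for length. The intervals cover counting error within this 1 list only, and neighbouring sites are not independent of each other.

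The 18 peaks of 1,25D replicate 2 were weak, with folds of 2.25 to 3.64 and a median of 2.98, below the list's median of 3.53. None reached a fold of 5. Sites in all 3 EtOH lists had such a peak at 2 of 13 (15.4%, interval 1.92% to 45.4%). Those in 2 EtOH lists had one at 16 of 309 (5.18%, 2.99% to 8.27%). The first interval is wide and holds the second, and the difference was not tested. With a single 1,25D list in the rule the share depended on which was kept: it was 15.4% without 1,25D replicate 3 and 7.95% without 1,25D replicate 1. Without EtOH replicate 2 it was 10.0%, and without EtOH replicate 3 it was 2.5%.

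**Figure D3:**
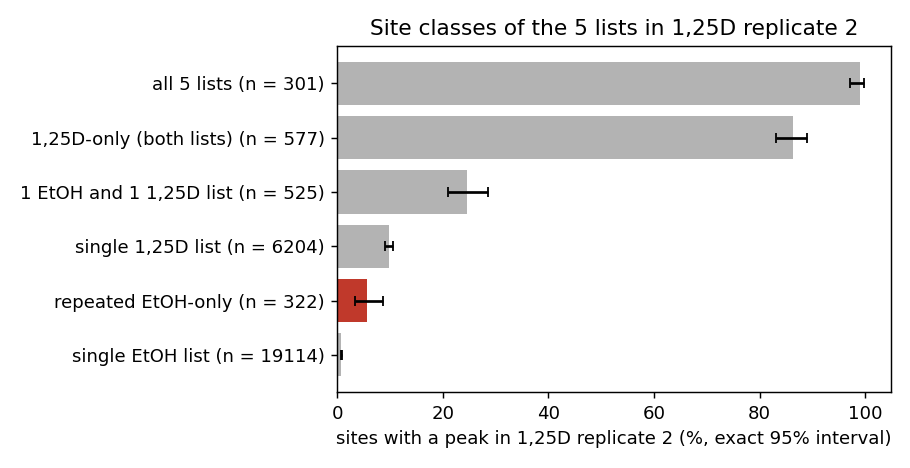
Share of sites (horizontal axis, %) with a peak in 1,25D replicate 2, for 6 classes of sites defined by the other 5 lists, with exact 95% intervals as error bars and the number of sites of each class in brackets. Repeated EtOH-only sites, at 5.59% of 322, lie above single-list EtOH sites and far below the classes called in both 1,25D lists. The share over all sites, which has no bar, was 7.86%.

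Repeated EtOH-only sites lay nearer to peaks of the hormone libraries than other EtOH sites did. Of the 439, 93 (21.2%) lay within 1 kb of a site with a peak in at least 1 of the 1,25D lists and 43 (9.79%) within 200 bp. For single-list EtOH sites the shares were 4.54% and 1.47%. In the moved lists, where such neighbours are brought together by the offsets, 3.72% on average (range 0.68% to 7.19%) lay within 1 kb. The median distance to a 1,25D site was 11.4 kb for repeated and 38.3 kb for single-list EtOH sites. However, 49.0% of the former and 23.6% of the latter lay on chromosome 1, where single-list EtOH sites were densest. The medians were not split by chromosome. Within 1 kb lay 38 of the 215 repeated EtOH-only sites on chromosome 1 and 55 of the 224 on other chromosomes. All these classes share the same libraries, so the distances are given without a test.

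Some neighbours were sites called with and without the hormone. Within 1 kb of a site in all 5 lists lay 25 repeated EtOH-only sites (5.69%), against 3.25% of sites in 1 EtOH and 1 1,25D list, 1.41% of 1,25D-only sites and 0.461% of single-list EtOH sites. Within 100 kb the shares were 17.1%, 14.0%, 15.6% and 6.39% in the same order, and the median distances were 879, 931, 801 and 1289 kb. At that range the single-list EtOH sites stood apart and the other classes did not. Without EtOH replicate 1 the median for repeated EtOH-only sites was 512 kb. The nearest of all were on chromosome 5. The site at 65079512 to 65079824 began 1 bp after a site in all 5 lists ended, that at 75978788 to 75979085 (folds 3.67 and 4.05 in EtOH replicates 1 and 3) ended 1 bp before the next one, and that at 57098661 to 57098976 (3.46 and 3.01 in replicates 2 and 3) ended 22 bp before another.

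The 93 sites within 1 kb had a median highest fold of 4.01, and the 346 further away had 3.78. The nearest 1,25D peak had a median fold of 4.13 (quartiles 3.18 and 6.01) for the former and 3.61 (3.09 and 4.19) for the latter. In 40 of the 93 cases the neighbour was a site of 1 list only, and in 24 it was a site in all 5 lists. 1,25D replicate 2 had a peak at 6 of 63 sites within 1 kb (9.52%, interval 3.58% to 19.6%). It had one at 12 of 259 further away (4.63%, 2.42% to 7.95%). The intervals overlap, and the difference was not tested. Whether a flanking peak is a separate site or the edge of its neighbour was not tested. With peaks joined across gaps of up to 500 bp the number of repeated EtOH-only sites was 845, against a mean of 495 (range 427 to 539) in moved lists joined the same way.

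**Figure D4:**
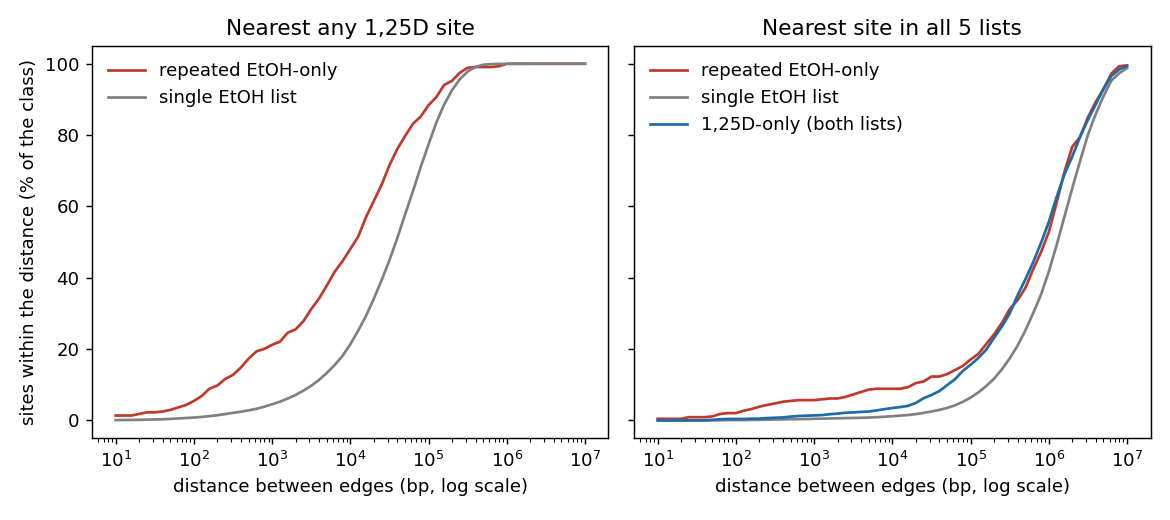
Share of sites (vertical axis, %) whose nearest site with a 1,25D peak (left) or nearest site in all 5 lists (right) lies within a given distance (horizontal axis, bp, log scale), for repeated EtOH-only sites, single-list EtOH sites and, on the right, 1,25D-only sites. At 1 kb the left panel reads 21.2% for repeated and 4.54% for single-list EtOH sites.

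Chromosome 1 held 215 of the 439 repeated EtOH-only sites (49.0%). It held 23.6% of single-list EtOH sites, 37.8% of sites in 1 EtOH and 1 1,25D list, 16.3% of 1,25D-only sites and 18.8% of sites in all 5 lists. The peak density was also highest there, with 33.6 single-list EtOH sites per Mb of covered span, against 5.35 to 18.4 on the other chromosomes. The moved lists placed a similar share, 52.7% (range 47.2% to 63.9%), on chromosome 1. Measured against them, chromosome 1 did not have a higher ratio than the rest: 215 sites against a mean of 78.1, a ratio of 2.75, and 224 against 70.0 on all other chromosomes, a ratio of 3.20. Whether the number of copies of chromosome 1 in these cells or its coverage bears on this was not tested.

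Chromosomes 4, 2, 3 and 12 followed, with 26, 24, 24 and 24 sites. Their ratios to the moved means were 2.68, 2.82, 2.47 and 3.33. Chromosome 21, with 2 sites against a mean of 1.9, was the exception, and counts that small carry little weight. Of 424 windows of 5 Mb with any site, 186 held a repeated EtOH-only site and 8 held 10 or more, all on chromosome 1. The windows of chromosome 1 at 235 to 240 Mb and at 40 to 45 Mb held 16 each, beside 394 and 185 single-list EtOH sites. The windows at 185 to 190 Mb and 190 to 195 Mb held 13 each, beside 448 and 479. Across windows the number of repeated and single-list EtOH sites had a Spearman's rho of 0.367, a description over windows of the same libraries.

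**Figure D5:**
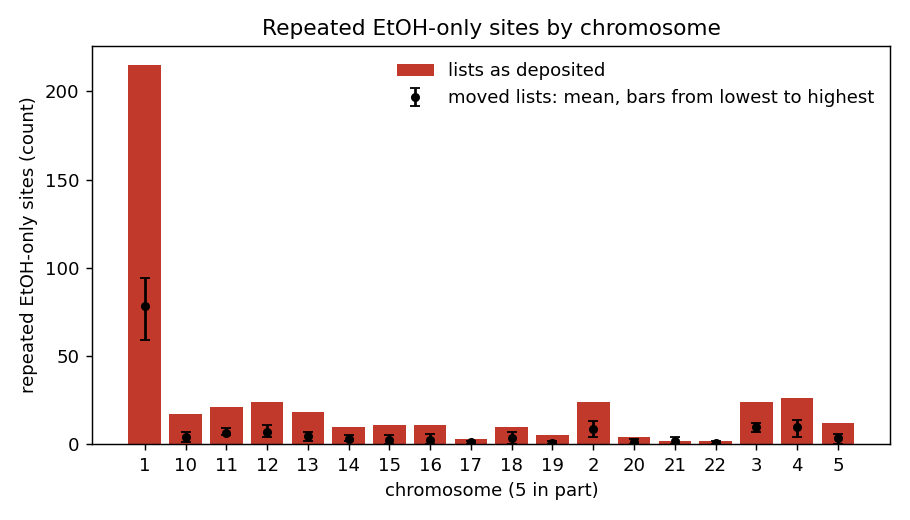
Repeated EtOH-only sites per chromosome (red bars, count) with the mean over 10 sets of moved lists (black points) and their lowest and highest values (error bars); chromosomes are in the order of the lists and chromosome 5 is covered in part. Chromosome 1 stands out in both, with 215 sites against a moved mean of 78.1.

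Some repeated EtOH-only sites were packed together. With members no more than 100 kb apart joined, 12 clusters of 3 or more held 46 of the 439, and 9 of the clusters were on chromosome 1. The largest had 7 members between 40867496 and 41021194 of chromosome 1, with no member fold above 2.93. A second cluster on that arm, at 40623238 to 40668554, had 3 members with a highest fold of 3.22. In both clusters 2 members had a peak in 1,25D replicate 2. The densest was on chromosome 10 at 42385056 to 42396291, where 5 members lay within 11.2 kb around a site called in all 5 lists at 42390844 to 42391745. That site had a mean fold of 4.66 after EtOH and 2.13 after 1,25D, from lists processed separately. Chromosome 16 had 4 members within 61.1 kb, at 46385920 to 46446997, among them the highest fold of any member, 6.92.

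The clusters on chromosomes 10 and 16 border long stretches without any peak. The longest peak-free stretch of chromosome 10 ran from 39149388 to 42356754 and that of chromosome 16 from 35281494 to 46385920. Over the 17 chromosomes covered whole, 23 of 427 repeated EtOH-only sites (5.39%) lay within 1 Mb of the longest such stretch of their chromosome, against 1.40% of 33813 single-list EtOH sites. Chromosome 10 gave 7 of the 23, chromosome 16 gave 4 and chromosome 12 gave 3. Sites with a fold under 2.5 in every list that called them were few, and most met in the same places. Of 7, 4 lay on chromosome 1 between 40 and 42 Mb and 2 on chromosome 10 near 42 Mb. The last lay on chromosome 18 at 18520014, where the longest peak-free stretch of that chromosome ended at 18512141. The peak caller's lowest p was 0.000237 to 0.00147 at those on chromosome 1 and 1.39e-09 to 1.48e-08 at the others, so they were alike in fold only. This grouping by fold was made after the values were seen. Repeat content and copy number at these places were not measured here.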

How the data were processed

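The submitters' processing notes name Bowtie 1.1, MACS2 and the build hg19 (GRCh37). How duplicates and the input were handled, the MACS2 version and its threshold are details not given in the sources used. There is 1 peak list per library. Per the file headers, each deposited peak has a fold enrichment, a ratio over the caller's background, and a p-value. Of the 6 lists, 3 ended in mid-line as used here (1,25D replicates 2 and 3, EtOH replicate 3), and the incomplete line was dropped. Whether starts count from 0 or 1 is not stated, so a start may be off by 1 bp.

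Peaks sharing at least 1 bp were merged in Python 3.11.15, and a site's fold in a list is its highest there. Percentiles are within a list. For the moved lists, each of the 5 lists was shifted by its own multiple of a step. Shares have exact Clopper-Pearson intervals (scipy 1.17.1). No test across sites was run, because presence in these lists chose the members. The merging was tested on simulated lists. Named are all members in 3 EtOH lists, the 10 in 2 lists with the highest lower percentile, the 3 nearest a site in all 5 lists, and sites at the edges of the rule; clusters and windows were named after their values were seen. Members and lists were chosen with earlier results of these data known. The alternatives changed overlap, fold, highest p, list length, chromosomes and libraries. The gene and promoter tables at hand are of GRCh38 and were not used, since coordinates were not converted: the last peak of chromosome 1 ends at 249239892, beyond the last gene of that table at 248937099. Planned work on motifs, promoters and gene lists was therefore not run.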

Additional observations from a re-analysis of the deposited data

How the results depend on the processing

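The number of repeated EtOH-only sites, 439 as reported, was 845 with peaks joined across gaps of up to 500 bp, 283 with lists of equal length (8620 peaks of lowest p each), 224 without chromosome 1 and 4 when peaks under a fold of 5 were dropped. It was 293 with a 50% overlap, 294 at a fold of 3 or more, 378 with the same highest p for all lists, 304 with 1,25D replicate 2 added over its part (322 without it there) and 346 without the sites within 1 kb of a 1,25D site, a setting chosen after seeing the data. Leaving out 1 library at a time gave 145 to 560, with the lower values where an EtOH list was left out and 2 of 2 had to agree. The number of 1,25D-only sites, 1204, was 704 at a fold of 5 or more, 492 with 1,25D replicate 2 added over its smaller part (577 without it there) and 1294 to 7446 with 1 library left out, the highest where a single 1,25D list sufficed. The share of repeated EtOH-only sites with a peak in 1,25D replicate 2 was 2.5% to 15.4%, and the median distance to a site in every list 512 to 898 kb, with 1 library left out. At a fold of 5 or more, where 4 sites met the rule, the share and the distance were 0% (0 of 2 sites) and 3335 kb. Weaker 1,25D peaks were dropped there too, so these sites were not all among the 439. The share was 8.57% with a 50% overlap (18 of 210 sites), within the interval of the reported 5.59%, and 4.21% to 7.48% under the other settings run. The distance was 814 to 1106 kb under the other settings run. The values at a fold of 5, at equal list length and, for the distance, with 1,25D replicate 2 added were chosen after seeing the data. No paired analysis was possible because the results are counts of sites with no test over replicates. Depth is unknown, so a missing peak cannot be told from one just under the threshold.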

Other observations

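Beyond the compared part, 4 of the lists went on to chromosome 6 at 86580665: 1,25D replicate 1 and the EtOH replicates. Over the rest of chromosome 5 and this part of chromosome 6 they held 6045 sites, of which 99 (1.64%) were in at least 2 EtOH lists and not in 1,25D replicate 1. With the same 4 lists the compared part had 560 of 45835 (1.22%). The median highest fold of these sites was 4.05 there and 3.92 in the compared part. A total of 4 of the 6045 were in all 3 EtOH lists, against 44 of the 45835. The site on chromosome 5 at 128029902 to 128030291 had folds of 4.17, 4.15 and 4.75 in EtOH replicates 1 to 3, and that on chromosome 6 at 51953477 to 51953922 had 4.53, 4.23 and 3.13. The others, on chromosome 6 at 62637875 to 62638197 and 64376299 to 64376542, had folds of 3.01 to 4.17. With only 1 hormone list these sites met a looser rule than the 439.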
